A study of Mus musculus with 22 samples.

Results

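CD11c+CD8α- dendritic cells (DCs) sorted from the pancreas of NOD mice were compared after 18 hours of culture with PBS, the vehicle control of an LPS experiment, and at steady state, without culture. Of the 22 arrays of the series, 7 enter this comparison, 4 from PBS culture and 3 from steady state, chosen by strain and treatment as labelled. All 7 came from female NOD mice of 5 weeks, an age before diabetes in this strain, and each array holds RNA of cells pooled from 10 pancreases, so no value belongs to a single mouse. Whether a steady state and a cultured array share a pool is not stated. The pancreases were digested with enzymes, CD45+ cells were enriched on magnetic beads and CD11c+CD8α- cells were sorted by flow cytometry. Steady state cells were lysed directly, and the cultured cells were kept in RPMI-1640 medium with fetal calf serum and beta-mercaptoethanol before they were harvested with EDTA. The label of the series speaks of the culture as another experiment, while the methods describe sorted cells divided between lysis and culture. Time out of the tissue, medium, serum, harvest and any separate handling of the cultured samples therefore cannot be told apart in what follows. The other 15 arrays hold the same cells of C57BL/6 mice at steady state, in PBS culture and in LPS culture, and NOD cells in LPS culture. These arrays too hold RNA from female mice of 5 weeks, with 10 pancreases pooled for each. They are used below only as a reference for values of the NOD arrays.

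DCs take up antigen in tissues, process it and, once activated, mature: they raise surface costimulators and the chemokine receptor CCR7, change their chemokine and cytokine output and lower antigen uptake. Removal from tissue and culture are known to start part of this programme in the absence of a microbial stimulus. In the NOD mouse, which develops autoimmune diabetes, pancreas DCs lie close to the islets that are later infiltrated.

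Expression was read on the Mouse Genome 430 2.0 array, in log2 units for each probe set, and normalized by the authors with RMA, a method that gives all arrays the same overall distribution before probes are summarised. A difference of 1 on this scale is a 2-fold change, and every difference below is PBS culture minus steady state. The medians of the arrays lay between 7.64 and 7.68 at steady state and between 7.63 and 7.67 after culture. The lower quartiles were 6.08 to 6.19 and 6.28 to 6.35, and the upper quartiles 9.46 to 9.58 and 9.24 to 9.38, so the cultured arrays spanned a narrower range. Pearson correlations across probe sets lay between 0.9887 and 0.995 among the 3 steady state arrays, between 0.9872 and 0.9909 among the 4 cultured arrays and between 0.8862 and 0.916 across the groups. Probe sets of different genes bind with different strength, so levels are compared between arrays and never between genes.

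Most probe sets differed between cultured and steady state DCs. Of 45037 probe sets, 17028 were higher after culture (37.8%) and 13194 lower (29.3%) at a Benjamini-Hochberg adjusted p under 0.1 by limma, together 67.1%. Within the brighter 50% of probe sets the split turned, with 7304 higher and 9436 lower. With a change of at least 2-fold as a second condition, 3415 were higher (7.58%) and 5342 lower (11.9%). Each of 18194 genes is represented by the brightest probe set that names it alone. On that scale 71.7% of genes were called, 41.5% higher and 30.2% lower, and 20.6% were called with at least 2-fold, 1465 higher (8.05%) and 2274 lower (12.5%). Since a call alone is so common here, gene groups are described by their members called with at least 2-fold, to be read against 8.05% higher and 12.5% lower, and by their median beside the median of all genes, 0.15. That median was not 0: the dimmer 50% of probe sets had a median of 0.22 and the brighter 50% one of -0.11, a shift that moves with the narrower range of the cultured arrays. The 2 groups did not overlap for 60.6% of probe sets and 66.1% of genes. In these bulk samples fewer cells of a type and less RNA per cell cannot be told apart, and the p-values measure the spread between pools.

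The transcripts of the sort markers themselves moved. Itgax, which encodes CD11c, read 10.83, 10.94 and 10.91 at steady state and 8.88, 8.93, 8.68 and 9.23 after culture. All 4 cultured samples lay below all 3 steady state samples, and the mean fell by 1.96 (SE 0.14, limma adjusted p = 3.22e-07). Ptprc, which encodes CD45, read 13.09 ± 0.18 (mean ± SD, n = 3) at steady state and 12.27 ± 0.21 (n = 4) after culture. Cd8a, the marker the sort was to exclude, read 7.78 ± 0.13 and 8.45 ± 0.17. It was higher after culture by 0.67 (limma adjusted p = 0.000979).

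Macrophage transcripts were read in the sorted cells before culture. The list of macrophage genes had a mean level over its 23 measured members of 12.70 to 12.89 at steady state and 11.12 to 11.39 after culture, and the list of conventional DC genes one of 11.14 to 11.15 at steady state and 10.57 to 10.71 after culture. Cd163, the haemoglobin scavenger receptor of resident macrophages, was read at 13.47 ± 0.09 at steady state. Lyve1, a hyaluronan receptor, was at 13.49 ± 0.09, and the mannose receptor gene Mrc1 at 14.09 ± 0.10. The DC genes Zbtb46, Flt3 and Irf4 were also read, at 9.65 ± 0.07, 9.13 ± 0.13 and 10.86 ± 0.24. The name CD8α- DC is kept below as the labels give it, for a CD11c+ sort that also carried macrophage transcripts.

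Pancreas acinar transcripts were read in the sorted cells and fell in culture. Of 16 measured acinar genes, 15 fell at least 2-fold, 0 rose, and the median difference was -2.56. Their mean level differed widely between samples of 1 group: it was 13.11, 12.42 and 12.02 at steady state and 8.51, 10.76, 9.32 and 11.84 after culture. Cpa1, a carboxypeptidase of pancreatic juice, read 13.63, 12.60 and 12.35 at steady state and 8.89, 10.64, 8.99 and 11.86 after culture. Cultured sample 4 lay only 0.18 below the lowest steady state sample for the list as a whole, and cultured sample 1 lay furthest below. Pnliprp1, a lipase-related protein of the same cells, fell by 3.69, Cela1, an elastase, by 3.16 and Cpb1 by 3.12. The part of these transcripts in other differences was not tested, and neither was their source.

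The 15 largest rises among genes whose groups did not overlap included enzymes, chemokines and receptors of activated myeloid cells. Acod1, the enzyme that makes itaconate in activated macrophages and DCs, read 6.21, 6.07 and 6.14 at steady state and 13.76, 13.77, 13.94 and 13.76 after culture. The difference was 7.66, or 203-fold (SE 0.11, limma adjusted p = 1.13e-11). At steady state this transcript lay below the lower quartile of all values, and in culture the 4 samples lay close together. Ptgs2, the inducible cyclooxygenase, read 5.50, 5.77 and 6.65 at steady state and 12.38, 13.13, 13.39 and 12.60 after culture, and Ptges, the prostaglandin E synthase that acts after it, 6.72, 6.95 and 6.71 at steady state and 13.10, 13.62, 13.88 and 13.72 after culture. Both were low in every steady state sample and high in every cultured one, with differences of 6.91 and 6.79. Slc7a2, a transporter of arginine and lysine, rose by 7.60 from 5.60 ± 0.05. Cxcl3, a chemokine that attracts neutrophils, rose by 7.36, and Cxcl11, a ligand of CXCR3 on activated T cells, by 7.04. Inhba, the activin A subunit, rose by 6.71, and Clec4e, the receptor Mincle for mycobacterial and dead-cell ligands, by 6.08. The remaining genes among the 15 largest rises were AA467197 (7.34), the interferon-induced Ifit1bl1 (6.96), the transcription factor gene Pou3f1 (6.71), Clic5 (6.46), the lipase gene Lipg (6.35), Mir155hg, the host transcript of a microRNA of activated immune cells (6.27), and Pdpn, which encodes podoplanin (6.20). All 15 changed with adjusted p between 1.13e-11 and 3.96e-09 by limma. On the brightest probe set of each gene they ranged from 67.9-fold to 203-fold. The size depended on the probe set for some genes. Inhba and Pou3f1 have 2 probe sets each, and the other one rose by only 0.99 and 1.08. For Lipg and Clic5 another probe set rose more, by 8.03 and 6.73.

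**Figure D1:**
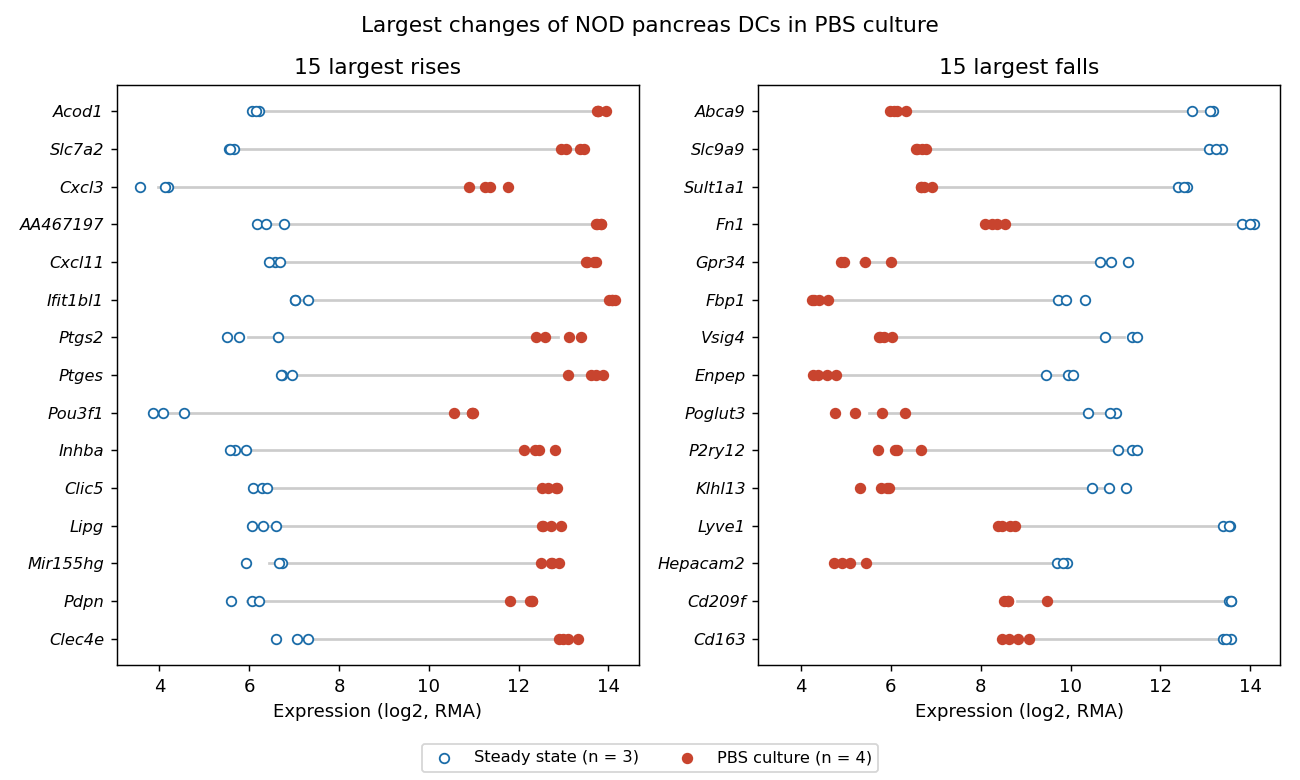
Log2 expression per probe set (x axis) of the 15 genes with the largest rises and the 15 with the largest falls after PBS culture, 1 line a gene. Open circles are the 3 NOD steady state samples and filled circles the 4 NOD PBS samples. Only genes whose 2 groups do not overlap were eligible, and the nearest samples of the groups lie at least 4.05 apart.

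The 15 largest falls, also taken among genes whose groups did not overlap, included several genes known from tissue-resident macrophages. Vsig4, a complement receptor of resident macrophages, read 11.37, 10.76 and 11.48 at steady state and 5.85, 5.76, 6.02 and 5.74 after culture. Lyve1 read 13.55, 13.39 and 13.52 at steady state and 8.47, 8.65, 8.77 and 8.38 after culture, and Cd163 read 13.57, 13.39 and 13.47 at steady state and 8.48, 8.63, 9.08 and 8.83 after culture. Every cultured sample was below every steady state sample for each of the 3 genes, and the differences were -5.36, -4.92 and -4.72. Fn1, which encodes fibronectin, fell by 5.66. Gpr34 and P2ry12, receptors for a lysophospholipid and for ADP that are known from microglia, fell by 5.62 and 5.15. Fbp1, the gluconeogenic fructose bisphosphatase, fell by 5.60, and Cd209f, a lectin gene of the DC-SIGN family, by 4.76. The largest fall of all was that of Abca9, a lipid transporter gene, by 6.86 (SE 0.14, limma adjusted p = 4.65e-11), followed by the endosomal sodium-proton exchanger gene Slc9a9 (-6.58) and the sulfotransferase gene Sult1a1 (-5.76). Enpep (-5.33), Poglut3 (-5.24), Klhl13 (-5.11) and Hepacam2 (-4.77) completed the 15. Adjusted p lay between 2.68e-11 and 6.04e-08 by limma. Another probe set fell less for Abca9 (-4.02), Slc9a9 (-3.305) and Klhl13 (-2.44), and more for Lyve1 (-5.75).

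Interferon-stimulated genes, which cells express when type I interferon acts on them, had the highest median of the 49 gene lists examined. Of 29 measured members 28 rose at least 2-fold and 0 fell, with a median difference of 3.29 and a range from 0.99 to 5.70. Cmpk2, a mitochondrial nucleotide kinase, read 7.76, 8.43 and 8.22 at steady state and 13.68, 13.90, 13.87 and 13.89 after culture. Ifit2, which binds foreign RNA, read 8.92, 8.38 and 8.68 at steady state and 14.13, 14.10, 13.96 and 13.95 after culture. For both, all cultured samples lay above all steady state samples, by at least 5.25 and 5.03. Rises of 5.35, 5.18, 5.08 and 4.77 were seen for the exonuclease gene Isg20, for Ifit1, for the transcription factor gene Irf7 and for Rsad2, which encodes viperin. The smallest rise, 0.99, was that of Irf9, which encodes the DNA-binding subunit of the interferon-activated complex ISGF3, and its partner Stat2 rose by 3.21. Ifnb1, which encodes interferon beta, rose by 3.74, from 5.38 ± 0.23 to 9.12 ± 0.14.

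ISGF3 binds an element with a pair of GAAA blocks, and NF-kB a site that starts with GGG and ends with CC. The promoters of 5 genes that rose are given here because interferon-stimulated genes and NF-kB genes both rose in culture, and they show where such letters lie. The 5 were picked by hand and all hold a match, which many genes of their lists do not, as the shares below show. Each is the 250 bases before the RefSeq start, on build GRCm38.p6, written along the gene with the start following the last base. Capitals mark matches, on either strand, to GAAANNGAAA or to GGGANNTTCC, the 2 motifs searched, and in these sequences no match of one overlaps a match of the other.
Ifit1: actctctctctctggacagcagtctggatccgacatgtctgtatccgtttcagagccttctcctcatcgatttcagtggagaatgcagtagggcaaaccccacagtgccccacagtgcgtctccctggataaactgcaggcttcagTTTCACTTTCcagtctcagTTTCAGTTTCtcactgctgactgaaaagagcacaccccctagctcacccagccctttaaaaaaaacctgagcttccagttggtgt
Rsad2: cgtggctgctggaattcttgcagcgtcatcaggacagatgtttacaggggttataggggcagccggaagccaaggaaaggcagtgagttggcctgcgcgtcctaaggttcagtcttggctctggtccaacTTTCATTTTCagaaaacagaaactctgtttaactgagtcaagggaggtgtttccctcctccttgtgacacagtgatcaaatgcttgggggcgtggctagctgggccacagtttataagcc
Cxcl10: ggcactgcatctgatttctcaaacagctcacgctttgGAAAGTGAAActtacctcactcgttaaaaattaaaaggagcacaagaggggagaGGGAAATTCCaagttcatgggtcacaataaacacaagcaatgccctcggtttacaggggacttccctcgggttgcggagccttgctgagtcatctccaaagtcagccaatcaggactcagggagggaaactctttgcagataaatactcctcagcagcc
Cxcl2: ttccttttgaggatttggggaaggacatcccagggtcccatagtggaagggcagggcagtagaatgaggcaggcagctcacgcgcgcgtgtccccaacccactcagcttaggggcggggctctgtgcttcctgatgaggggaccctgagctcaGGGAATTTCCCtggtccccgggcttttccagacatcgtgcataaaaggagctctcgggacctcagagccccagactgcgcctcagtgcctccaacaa
Il6: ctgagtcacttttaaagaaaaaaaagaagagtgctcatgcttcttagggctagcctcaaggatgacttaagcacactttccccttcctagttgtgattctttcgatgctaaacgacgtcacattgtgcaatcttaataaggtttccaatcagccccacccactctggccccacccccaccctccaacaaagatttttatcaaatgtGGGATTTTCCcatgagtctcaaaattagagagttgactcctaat
Ifit1 (chr19:34640639-34640888, plus strand) holds 2 GAAANNGAAA matches read on the reverse strand, from 104 to 95 bases and from 85 to 76 bases before the start, and Rsad2 (chr12:26456453-26456702, minus strand) holds 1 from 120 to 111 bases. Cxcl10 (chr5:92348890-92349139, minus strand) holds 1 match of each motif. Cxcl2 (chr5:90903649-90903898, plus strand) holds overlapping GGGANNTTCC matches of both strands, and Il6 (chr5:30012864-30013113, plus strand) holds 1 match from 44 to 35 bases. Among all 27025 genes with such a sequence, 3.46% held GAAANNGAAA and 1.36% GGGANNTTCC. Of the 29 interferon-stimulated genes 21 had a sequence, and 9 of these (42.9%) held GAAANNGAAA. GGGANNTTCC was held by 5 of 20 chemokine genes (25%), 4 of 20 cytokine genes (20%) and 3 of 19 genes of the NF-kB list (15.8%), and also by 3 of the 21 interferon-stimulated genes (14.3%). GAAANNGAAA was held by 2 of the 20 chemokine genes (10%) and by 0 of the cytokine and NF-kB genes. A match is a description of letters, and binding was not measured.

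Chemokines attract leukocytes through receptors of their own. Of 28 measured chemokine genes 18 rose and 3 fell at least 2-fold, with a median of 1.74. Cxcl10, another CXCR3 ligand, read 8.66, 8.95 and 8.89 at steady state and 14.38, 14.35, 14.42 and 14.27 after culture. Ccl4 read 8.85, 9.45 and 10.22 at steady state and 13.68, 13.83, 14.07 and 13.78 after culture, and the neutrophil chemokine Cxcl5 rose by 4.28. The groups did not overlap for any of the 3. Falls were found for Ccl6 (-4.02), Ccl24, an eosinophil chemokine also called eotaxin-2 (-3.00), and Ccl17, a ligand of CCR4 made by DCs (-1.52). Ccl22, the other CCR4 ligand, rose by 1.35. Among 18 chemokine receptors 3 rose and 4 fell at least 2-fold. Ccr7, which guides DCs to lymph nodes, read 8.89, 8.67 and 9.05 at steady state and 12.74, 13.10, 13.38 and 13.15 after culture, and no cultured sample overlapped a steady state sample. Ccrl2 rose by 2.81 and Cxcr6 by 2.60. Cx3cr1 and Ccr2, receptors of monocytes and of tissue phagocytes derived from them, fell by 3.89 and 3.74.

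Most inflammatory cytokine genes rose, and so did most regulators of NF-kB, the transcription factor family downstream of Toll-like and TNF receptors. Of 25 cytokine genes 19 rose and 1 fell at least 2-fold (median 1.85). With the dimmer probe sets left out 12 rose, but members on those probe sets were then not tested. Csf3, the granulocyte growth factor, read 4.70, 5.72 and 5.26 at steady state and 10.26, 10.52, 11.69 and 9.99 after culture, and Il6 read 5.98, 6.04 and 7.22 at steady state and 11.20, 11.72, 12.05 and 10.84 after culture. Sample 3 was the highest of the cultured samples for both, and each cultured sample stood above each steady state sample. Il1rn, the interleukin-1 receptor antagonist, rose by 4.83, Il1a by 4.51, Tnf by 4.14 and Il10 by 2.34. Il16 fell by 1.89. Of the 2 interleukin-12 subunit genes, Il12b read 7.82 ± 0.29 and 8.05 ± 0.08 (difference 0.23, SE 0.14, limma adjusted p = 0.191), and Il12a was higher by 1.03. Of 22 NF-kB genes 17 rose and 0 fell at least 2-fold (median 1.35). The 4 largest were Traf1, an adaptor of TNF receptors (2.90), the ubiquitin-editing inhibitor gene Tnfaip3 (2.72), Nfkbib (2.47) and Tnip1 (2.11). The subunit genes Rel, Relb and Nfkb2 rose by 1.97, 1.96 and 2.04. Ikbkb, an I-kB kinase subunit, was lower by 0.61.

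Among the receptors that sense microbial products both directions were seen. Of 24 genes of Toll-like receptors and their adaptors 7 rose and 2 fell at least 2-fold (median 0.40). Tlr3, the sensor of double-stranded RNA, rose by 2.48, Irak2 by 2.03 and the decoy kinase gene Irak3 by 1.61. Tlr5, the flagellin receptor, fell by 3.32 and Tlr1 by 1.29. Of the LPS receptor complex, Cd14 was higher by 0.74. Tlr4 read 11.71 ± 0.07 and 11.50 ± 0.33 (difference -0.21, SE 0.17, limma adjusted p = 0.291), and its probe sets disagreed in direction.

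**Figure D2:**
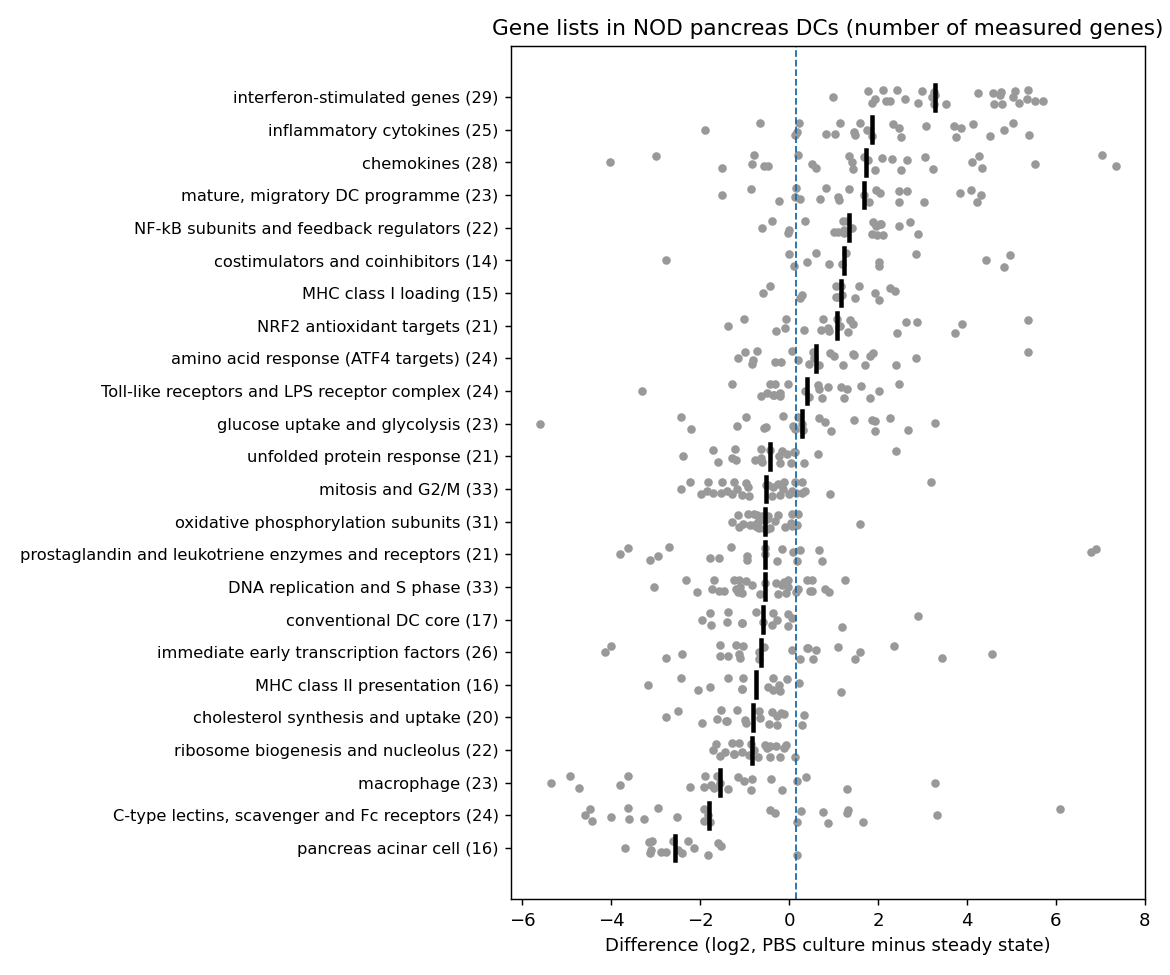
Differences (log2, PBS culture minus steady state, x axis) of the measured members of 24 gene lists in NOD DCs, 1 grey point a gene, with the list's median as a black bar. The 24 were picked by hand from the 49 lists examined. Those not shown include lists with medians near that of all genes. The lists of monocyte (-1.56), CD8α+ or CD103+ DC (-1.09) and CD8α- DC genes (-0.73) are not shown either. The dashed line is the median of all genes, 0.15. Interferon-stimulated genes lie highest by median and acinar genes lowest.

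Of 14 costimulators and coinhibitors 8 rose and 1 fell at least 2-fold (median 1.23). Cd274, which encodes the inhibitory ligand PD-L1, read 8.44, 8.06 and 8.44 at steady state and 13.31, 13.14, 13.19 and 12.98 after culture. Cd40, the receptor of T cell help, read 11.27, 11.09 and 11.38 at steady state and 14.15, 14.07, 14.16 and 14.01 after culture, and Cd86, a ligand of CD28, 11.90, 12.05 and 11.86 at steady state and 13.96, 13.93, 13.99 and 13.90 after culture. For each of the 3 the cultured samples lay above the steady state samples without overlap. Tnfsf4, which encodes OX40L, rose by 4.97 and Cd200 by 4.42, while Vsir, which encodes the coinhibitor VISTA, fell by 2.77. Cd80 rose by 1.28. Cd83, often used as a maturation marker, read 12.43 ± 0.10 and 12.53 ± 0.09 (adjusted p = 0.47 by limma). Of 23 genes of the mature DC list 15 rose and 1 fell at least 2-fold (median 1.68). Besides Ccr7, the largest were Serpinb9, an inhibitor of granzyme B (4.31), Il15ra (4.08) and Serpinb6b (3.84), and Fscn1, the actin bundler of DC dendrites, rose by 1.68.

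MHC class I presents peptides of the cell's own proteins to CD8 T cells, and class II presents peptides of engulfed proteins to CD4 T cells. Of 15 class I genes 11 rose and 0 fell at least 2-fold (median 1.16). The peptide transporter genes Tap1 and Tap2 rose by 2.37 and 1.93, Nlrc5, the class I transactivator, by 2.28, and the loading factor gene Tapbpl by 2.01. Of 16 class II genes 1 rose and 8 fell at least 2-fold (median -0.75). H2-DMa, a subunit of the DM complex that loads peptide on class II, read 12.42, 12.95 and 12.41 at steady state and 9.48, 9.46, 9.27 and 9.42 after culture, and all 4 cultured samples lay below the steady state samples. Ciita, the class II transactivator, read 10.23, 10.14 and 9.98 at steady state and 8.77, 8.49, 8.05 and 8.08 after culture, also without overlap. H2-Ob and H2-DMb2 fell by 2.42 and 2.04, and the class II chain genes H2-Eb1, H2-Ab1 and H2-Aa by 1.37, 1.05 and 1.05. Cd74, the invariant chain, was lower by 0.35, and the exception was Rfx5, a class II promoter factor, which rose by 1.17.

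Of 23 macrophage genes 15 fell and 2 rose at least 2-fold (median -1.56). Gas6, a ligand of the receptor Mertk that serves the uptake of dead cells, fell by 3.80, and Mertk by 1.38. The colony-stimulating factor receptor gene Csf1r fell by 1.16 and Adgre1, an adhesion receptor of macrophages, by 1.01. Spic, a transcription factor of red pulp macrophages, rose by 3.28 and Fcgr1 by 1.30. Of 24 C-type lectins, scavenger and Fc receptors 13 fell and 5 rose at least 2-fold (median -1.81). Clec10a and Mgl2, galactose-type lectins, read 13.28, 13.15 and 13.19 at steady state and 8.76, 8.46, 8.64 and 8.56 after culture, and 12.34, 12.47 and 12.50 at steady state and 8.12, 7.53, 8.07 and 8.31 after culture. Cd209a, the DC-SIGN homologue that also serves as a mark of CD11b+ DCs, read 11.24, 11.18 and 11.30 at steady state and 6.48, 6.84, 6.85 and 6.87 after culture. The 3 lectins were high in each steady state sample and low in each cultured one. Fcgrt, the neonatal Fc receptor, fell by 3.61 and Cd209b by 4.00, whereas Clec4e and its neighbour Clec4d rose by 6.08 and 3.33.

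Of 17 conventional DC genes 7 fell and 2 rose at least 2-fold (median -0.58). Besides Itgax, Ciita and the class II chains, Cbfa2t3 and Batf3, transcription factor genes of conventional DCs, fell by 1.75 and 1.40. Irf4, Flt3 and Zbtb46 had differences of -0.03, -0.02 and 0.07 and did not pass the test. By the mean over its probe sets Zbtb46 was lower, at -0.28 (limma adjusted p = 0.0286). Of 14 genes of CD8α- or CD11b+ DCs 6 fell and 0 rose at least 2-fold, and among those that fell S100a4 dropped by 3.07. Of 10 genes of CD8α+ or CD103+ DCs 5 fell and 1 rose, with differences of -3.31 for Naaa, -2.11 for Wdfy4, which is needed for cross-presentation, and -2.01 for Itgae, which encodes CD103. Plasmacytoid DC genes went both ways, 3 higher and 3 lower of 9. The 3 that rose included Irf7 and Bst2, which are also on the interferon list, and Siglech and Tcf4 fell by 1.21 and 1.22. Monocyte genes fell in 5 of 9 cases and rose in 2, with F13a1, a coagulation factor subunit, at -3.64 and Ms4a4c at 3.63.

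**Figure D3:**
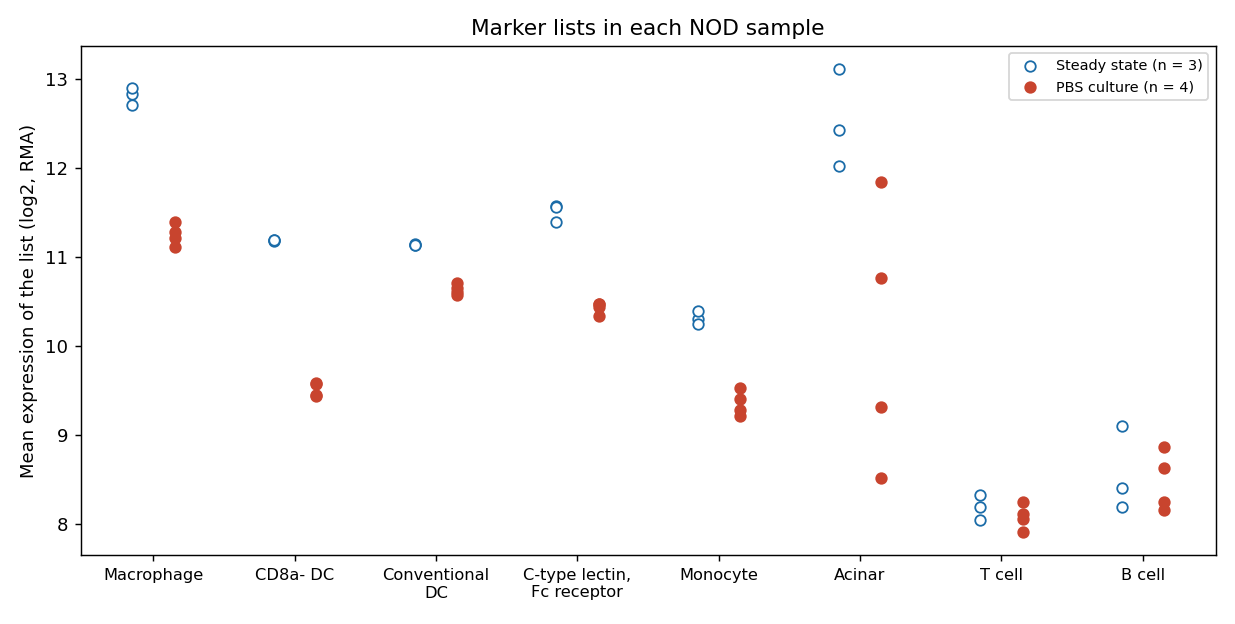
Mean log2 level (y axis) over the measured members of 8 marker lists in each NOD sample. Open circles are the 3 steady state samples and filled circles the 4 PBS samples. The macrophage, CD8α- DC and C-type lectin levels lie lower after culture without overlap, the acinar level varies by 3.33 between cultured samples, and T and B cell levels overlap between the groups.

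Lists of markers of other cell types were read in the same way. Of 10 T cell genes 0 rose and 1, Cd2, fell at least 2-fold, and the mean level was 8.05 to 8.33 at steady state and 7.91 to 8.24 after culture. Cd3e read 9.39 ± 0.38 and 9.14 ± 0.29, which did not pass the test (limma adjusted p = 0.285). For 12 B cell genes the mean level was 8.19 to 9.10 at steady state and 8.16 to 8.87 after culture, with 1 rise, that of Cd79a, and 1 fall, that of Cd79b. Of 16 NK and innate lymphoid genes 5 rose, led by the protease gene Gzmb (4.66) and Il7r (3.24), and Klrd1 and Klra8 fell by 1.06 and 1.00. The mean level of this list was 8.44 to 8.68 at steady state and 9.21 to 9.76 after culture. Among 11 mast cell and basophil genes Hdc, the histamine-forming enzyme, rose by 4.50, while the mast cell chymase gene Cma1 read 7.45 ± 0.02 at steady state and 7.71 ± 0.35 after culture, which did not pass the test. For the erythroid and platelet list no member reached a called 2-fold change. Of 10 neutrophil genes 3 rose, among them S100a8 (2.01), and 1, S100a9, fell by 2.03 (list median 0.52). With an intensity trend and robust spread S100a9 lost its call (limma adjusted p = 0.131). Of 14 fibroblast and endothelial genes 4 rose, led by Kdr (2.91) and Cdh5 (2.57), and 2 fell, led by Col3a1 (-2.51). In the islet and duct list 1 of 15 genes, Gcg, rose, by 2.08, and Ins2 read 8.42 ± 0.44 and 8.35 ± 0.20 (adjusted p = 0.76 by limma). The part of these cell types in other differences was not tested.

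Immediate early genes are switched on within minutes of a stimulus and then off again. Of 26 measured members 11 fell and 6 rose at least 2-fold (median -0.62). Fosb read 9.36, 10.01 and 10.64 at steady state and 5.09, 5.71, 6.68 and 5.95 after culture, Fos 13.61, 13.59 and 14.11 at steady state and 11.35, 10.72, 10.87 and 11.02 after culture. Steady state samples were the higher ones for both, without overlap. Klf2, a factor that keeps leukocytes quiescent, fell by 4.02 and the matricellular gene Ccn1 by 2.40. Other members of the AP-1 family went up, Fosl1 by 4.57 and Maff by 3.44, and the survival gene Ier3 rose by 2.36. The phosphatases that shut down MAP kinases rose in 7 of 15 cases and fell in 2. Dusp4 and Dusp5 rose by 3.69 and 3.52, and Dusp6, specific to ERK, fell by 2.04.

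NRF2 target genes, which detoxify oxidants, rose at least 2-fold in 11 of 21 cases and fell in 2 (median 1.07). Slc7a11, the cystine importer, read 5.25, 5.62 and 5.72 at steady state and 10.53, 11.01, 11.26 and 10.80 after culture, and Srxn1, sulfiredoxin, 9.10, 9.11 and 9.07 at steady state and 12.78, 12.58, 13.03 and 12.89 after culture. Both were higher in each cultured sample. Me1, which makes NADPH, rose by 3.90 and the quinone reductase gene Nqo1 by 2.87. Of 24 targets of ATF4, the factor of the amino acid response, 10 rose and 1 fell at least 2-fold, among them Trib3 (2.84), Ddit3 (2.40) and asparagine synthetase, Asns (1.88). In contrast, of 21 genes of the unfolded protein response 6 fell and 1, Ddit3, rose (median -0.43). Herpud1, a factor of protein degradation at the endoplasmic reticulum, fell by 2.40, Pdia4 by 1.71 and Sdf2l1 by 1.60, while the chaperone gene Hspa5 read 13.67 ± 0.01 and 13.51 ± 0.11 (adjusted p = 0.223 by limma). Heat shock chaperones had 1 rise and 2 falls of at least 2-fold in 16 genes, with Hspa1a and Hspa1b at -1.04 and -1.24.

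Of 17 p53 targets 5 rose and 3 fell at least 2-fold. Cdkn1a, the cell cycle inhibitor p21, rose by 3.42, Mdm2 by 2.55 and the death receptor gene Fas by 2.35. Sesn1, a sestrin, fell by 4.51. Of 14 Bcl-2 family genes 3 rose, the proapoptotic Bid (2.51) and Bak1 (1.96) and the protective Bcl2l1 (1.14), and Bcl2 fell by 1.45. Mcl1 read 13.41 ± 0.04 and 13.53 ± 0.10 (adjusted p = 0.393 by limma). In iron and metal handling 6 of 20 rose and 4 fell. The transferrin receptor gene Tfrc fell by 2.93 and Hfe, its partner in iron sensing, by 3.70, while metallothionein 2, Mt2, rose by 2.31 and the importer gene Slc11a2 by 2.06.

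Of 31 oxidative phosphorylation subunits 24 were lower and 1 higher at adjusted p under 0.1 (background 30.2% and 41.5%), yet 4 fell at least 2-fold, and the median was -0.54. The 4 were Sdha (-1.29, with probe sets that disagreed in direction), Ndufb5 (-1.15), Atp5c1 (-1.13) and Ndufa9 (-1.03), and Cycs, cytochrome c, rose by 1.58. Of 23 genes of glucose uptake and glycolysis 7 rose and 4 fell. The glucose transporter gene Slc2a1 read 10.40, 10.59 and 10.49 at steady state and 12.90, 13.24, 13.43 and 13.09 after culture, and the regulator Pfkfb3 rose by 2.26 and Eno2 by 3.28. A different glucose transporter gene, Slc2a3, fell by 2.21, and Aldoc by 2.43. Of 19 hypoxia-inducible targets outside glycolysis 5 rose and 3 fell. Ndrg1 rose by 2.52 and Adm by 1.98, and Egln1 fell by 1.94.

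Cholesterol synthesis genes fell in 8 of 20 cases and rose in 0 at the 2-fold condition (median -0.81). Stard4, a cholesterol carrier, fell by 2.77, the reductase gene Dhcr7 by 2.51, Tm7sf2 by 1.95 and squalene epoxidase, Sqle, by 1.62. Hmgcs1, an early enzyme, read 11.78 ± 0.16 and 11.50 ± 0.23 (adjusted p = 0.117 by limma). Among 21 genes of lipid handling 4 rose, led by the fatty acid carrier Fabp4 (3.21) and the oxysterol receptor gene Nr1h3 (2.21), and 6 fell, led by the desaturase Scd2 (-3.67) and lipoprotein lipase, Lpl (-2.59). Of 34 lysosome genes 5 rose and 6 fell. Gpnmb, a glycoprotein of stressed lysosomes, rose by 4.12 and Gla, alpha-galactosidase, by 4.11, and Man2b1 fell by 2.96. The cathepsin genes Ctsb, Ctsd and Ctss had differences of 0.18, 0.16 and 0.23 and did not pass the test.

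Genes of DNA replication fell in 13 of 33 cases, with 1 rise (median -0.55). Pola1, a subunit of the priming polymerase, read 8.99, 8.21 and 8.64 at steady state and 5.71, 5.29, 5.35 and 5.90 after culture, Mcm7, of the replicative helicase, 11.28, 10.79 and 11.21 at steady state and 9.23, 8.72, 9.11 and 9.06 after culture. Both were lower in each cultured sample, and Dut, which clears dUTP, fell by 2.32. Of 33 mitosis genes 13 fell and 1, Tpx2, rose (median -0.53). With the dimmer probe sets left out 8 fell, but members on those probe sets were then not tested. Kif23 and Cenpa fell by 2.43 and 2.23, and Birc5 by 1.99. Mki67, the proliferation marker Ki-67, read 10.85, 10.79 and 10.96 at steady state and 11.01, 10.73, 11.29 and 10.44 after culture, and the 2 groups overlapped (difference 0.01, SE 0.18, limma adjusted p = 0.983). Ribosome biogenesis genes fell in 9 of 22 cases and rose in 0 (median -0.83), with Wdr12 at -1.71, Nop16 at -1.65 and Myc, the factor that drives this programme, at -1.55. By the mean over the probe sets of a gene, 5 of the ribosome biogenesis genes fell at least 2-fold.

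Prostaglandins and leukotrienes are both made from arachidonic acid. Of 21 enzymes and receptors of the 2 routes 2 rose at least 2-fold, Ptgs2 and Ptges, and 8 fell. Alox5, the first enzyme of leukotriene synthesis, read 11.87, 11.18 and 11.68 at steady state and 7.70, 7.64, 7.82 and 7.96 after culture, and Ltc4s, leukotriene C4 synthase, 10.29, 11.55 and 10.48 at steady state and 7.19, 7.19, 7.31 and 6.94 after culture. Every cultured sample was below every steady state sample for both. Alox15 fell by 3.13 and Hpgd, which breaks down prostaglandins, by 2.96. Among 19 genes of matrix remodelling 8 rose and 6 fell. Timp1, an inhibitor of metalloproteinases, rose by 5.19, Mmp13 by 5.03 and Mmp14 by 4.28, while Mmp9 fell by 2.05. Of 20 growth factors 5 rose, among them Inhba, the EGF receptor ligand Hbegf (3.34) and placental growth factor, Pgf (2.81), and 3 fell, hepatocyte growth factor, Hgf (-1.96), Bmp2 (-1.70) and Igf1 (-1.07). Complement genes rose in 3 of 16 cases, led by factor B, Cfb (2.77), and fell in 4, led by properdin, Cfp (-2.28), and the C1q chains C1qa (-1.89) and C1qc (-1.76). Of 27 integrins and adhesion molecules 6 rose, led by Vcam1 (3.21), Itga5, a fibronectin receptor subunit (3.12), and Icam1 (2.26), and 5 fell, led by Itgb5 (-2.90) and the tetraspanin Cd81 (-2.63).

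The same culture of C57BL/6 DCs, 4 arrays against 4, gave a reference for the NOD change. The interaction, the NOD difference minus the C57BL/6 difference over 15 arrays, was called at adjusted p under 0.1 by limma for 7.84% of genes, 896 larger (4.92%) and 530 smaller (2.91%) in NOD. Over probe sets it was called for 6.8%, larger for 1793 (3.98%) and smaller for 1270 (2.82%). Without NOD steady state sample 4 these counts were 1142 and 813, and without NOD steady state sample 6 the second was 834. The median difference over all genes was 0.16 in C57BL/6 and 0.15 in NOD. Interferon-stimulated genes rose in both strains, with medians of 2.97 and 3.29, and for 23 of 29 the interaction was called larger in NOD, against 0 smaller. Mx1, an antiviral GTPase, rose by 4.25 in NOD and by 3.26 in C57BL/6, with an interaction of 0.98 (adjusted p = 0.000721 by limma). Its level read 9.27 ± 0.21 in NOD and 10.17 ± 0.09 in C57BL/6 at steady state, and 13.51 ± 0.08 and 13.43 ± 0.09 after culture. Ifit1 read 8.86 ± 0.21 and 9.86 ± 0.16 at steady state and 14.04 ± 0.10 and 13.95 ± 0.08 after culture (interaction 1.09, adjusted p = 0.000581 by limma). For both genes NOD started from the lower level. Whether the levels after culture lay near the upper limit of the array was not tested. Over the 29 genes the NOD level minus the C57BL/6 level had a median of -0.59 at steady state and 0.09 after culture, with 28 genes lower in NOD before culture. For Ifnb1 the interaction was -0.73 (adjusted p = 0.0674 by limma), the smaller rise in NOD.

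**Figure D4:**
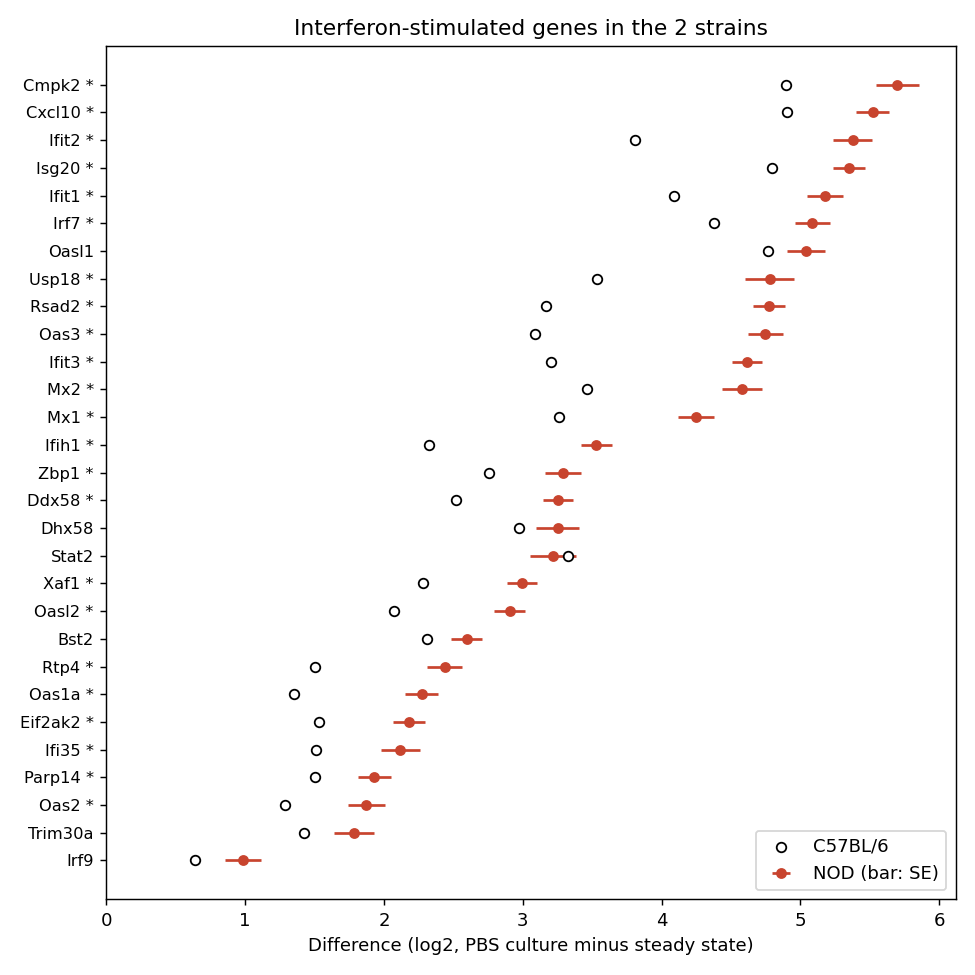
Difference (log2, PBS culture minus steady state, x axis) of the 29 measured interferon-stimulated genes in NOD (filled circles) and C57BL/6 (open circles), ordered by the NOD value. Asterisks mark the 23 genes whose interaction was called larger in NOD, and error bars are the SE of the NOD difference.

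The median of the mitosis genes was -1.72 in C57BL/6 beside -0.53 in NOD, and the interaction was called higher in NOD for 20 of 33 and lower for 0. Mki67 differed by -2.02 in C57BL/6 and by 0.01 in NOD (interaction 2.03, adjusted p = 2.92e-05 by limma). Its level was 12.14 ± 0.09 in C57BL/6 at steady state and 10.11 ± 0.24 after culture, so NOD was the lower strain before culture and the higher one after it. Top2a, a topoisomerase of dividing cells, fell by 1.72 in NOD and had a difference of -2.72 in C57BL/6 (interaction 1.00). For MHC class II the interaction was lower in NOD for 6 of 16 genes, and the medians were -0.75 in NOD and -0.34 in C57BL/6. H2-DMa differed by -1.48 in C57BL/6 (interaction -1.70, adjusted p = 0.000304 by limma). Among the genes with the largest changes, Slc7a2 rose by 3.07 in C57BL/6, from 8.56 ± 0.14 to 11.63 ± 0.29, against 7.60 in NOD (interaction 4.53, adjusted p = 1.6e-09 by limma). Fbp1 was already low in C57BL/6 at steady state, 5.57 ± 0.56, and differed by -1.26 there (interaction -4.33, adjusted p = 1.96e-07 by limma).

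The levels of NOD DCs cultured for the same time with LPS show where the PBS samples lie. Acod1 read 13.81 ± 0.09 with PBS and 13.98 ± 0.04 with LPS, and Ptgs2 12.88 ± 0.47 and 13.85 ± 0.07. Il6 read 11.45 ± 0.54 with PBS and 13.05 ± 0.17 with LPS, Csf3 10.62 ± 0.75 and 12.95 ± 0.21, and Nos2, the inducible nitric oxide synthase, 11.28 ± 0.32 and 12.15 ± 0.21, from 6.56 ± 0.09 at steady state. Cxcl10 read 14.36 ± 0.06 and 14.36 ± 0.02, and Cd274 13.15 ± 0.14 and 13.27 ± 0.07. Among the genes that fell, Cd163 read 8.76 ± 0.26 with PBS and 8.97 ± 0.07 with LPS, and Clec10a 8.61 ± 0.12 and 7.34 ± 0.19. Most of these genes were named for a large change in PBS culture, which largely fixed their distance from steady state. The PBS samples are the controls of the LPS comparison, so LPS and PBS values are given side by side without a test. Whether the highest of these levels lay near the upper limit of the array was not tested.

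**Figure D5:**
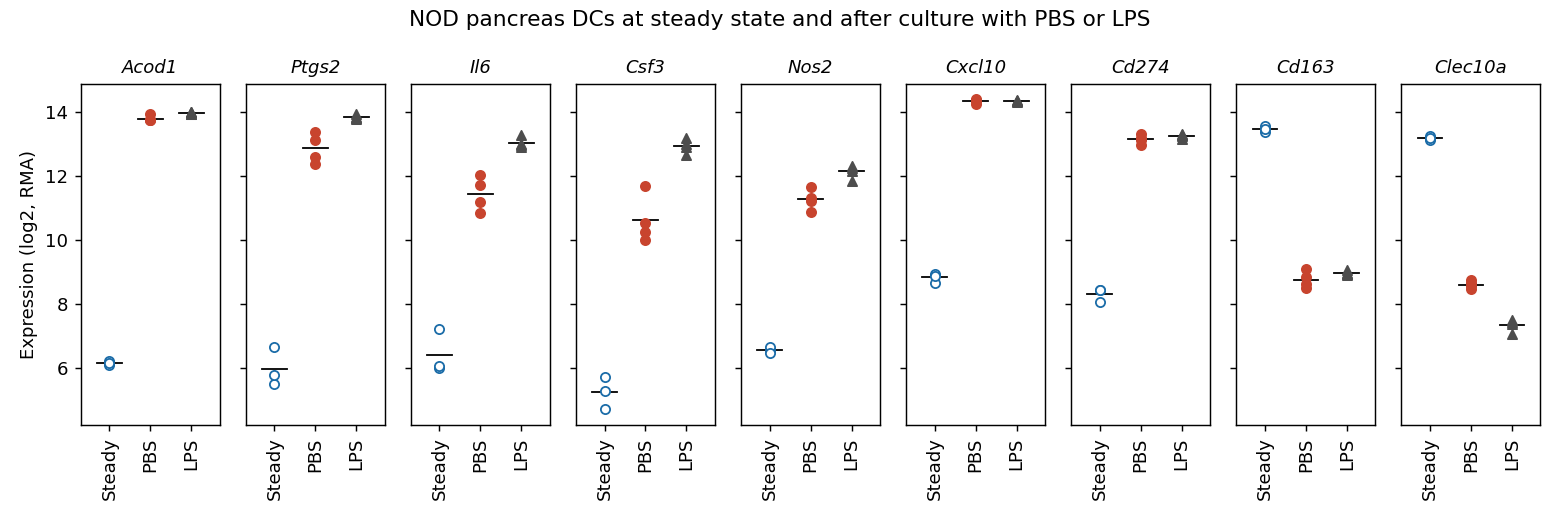
Log2 expression per probe set (y axis) of 9 genes in NOD DCs at steady state (open circles, 3 samples), after PBS culture (filled circles, 4 samples) and after LPS culture (triangles, 4 samples), with group means as bars. Acod1 means are 13.81 with PBS and 13.98 with LPS, and Csf3 means 10.62 and 12.95.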

How the data were processed

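RNA of sorted pancreas cells was amplified, labelled with biotin and hybridized to Mouse Genome 430 2.0 arrays. The authors normalized the arrays with RMA in BRB-ArrayTools, and the deposited values are log2 expression per probe set. Its version was not given in the sources used here. RMA forces a common distribution on the arrays, so a change shared by all genes cannot be seen, and its log2 values understate the fold of dim probe sets.

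The array holds 45101 probe sets, of which 64 are AFFX controls, and the other 45037 were tested. The platform annotation names 1 gene for 34945, several for 932 and none for 9160, and 99.4% of the single names were matched by Entrez id to RefSeq symbols. The brightest probe set that names a gene alone stands for it, which gave 18194 genes. The 7 NOD arrays were fitted with limma 3.58.1 in R 4.3.3 (lmFit and eBayes, no filter, no block). Calls used a Benjamini-Hochberg adjusted p under 0.1 over all probe sets, with a second rule of at least 2-fold. The strain by culture interaction was fitted over 15 arrays. Errors are given as the SD over arrays and, for differences, as limma's moderated SE. Groups of 3 and 4 arrays limit the precision. The code was tested on simulated data in which few probe sets changed, so that test gives no error rate for the present comparison.

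The comparison, the 49 lists (944 of 1033 entries were on the array) and the tests were chosen with earlier results of these data known. Genes named are the 15 largest rises and falls among called genes without overlap between the groups and with a brighter group above the median of all values, for each list the called members with the largest changes, at most 4 in each direction, the sort markers, and members that did not pass. A further 31 called genes were named after their values were seen. No array and no value column was left out. The alternatives were an adjusted p under 0.05, no dim probe sets, all 22 arrays in 1 fit, median centring, repeated quantile normalization, an intensity trend with robust spread, a replicate block, each array left out and the probe sets of a gene averaged. Promoter sequences are from RefSeq on build GRCm38.p6.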

Additional observations from a re-analysis of the deposited data

Results flagged for a closer look

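For 79 of the 246 genes named, the change in culture differed between NOD and C57BL/6 by the interaction test (limma, adjusted p under 0.1 over all probe sets). These genes were mostly named for large changes in NOD, so their share is not set against the 7.84% of all genes. The value after each gene is the interaction, the NOD log2 difference minus the C57BL/6 one, over 3 and 4 arrays in NOD and 4 and 4 in C57BL/6. A positive value with a rise means a larger rise in NOD, and a positive value with a fall a smaller fall.

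Among interferon-stimulated and antiviral genes the interaction was positive for Ifit1 (1.09), Ifit1bl1 (1.36), Ifit2 (1.56), Rsad2 (1.61), Mx1 (0.98), Cmpk2 (0.81), Irf7 (0.70), Isg20 (0.55), Cxcl10 (0.62) and Ms4a4c (0.60), and negative for Ifnb1 (-0.73). Among cytokines, growth factors and chemokines it was positive for Il1a (1.86), Il6 (1.99), Tnf (1.07), Il10 (1.08), Csf3 (2.14), Ccl4 (1.24), Inhba (1.75), Hbegf (1.74) and Bmp2 (0.97) and negative for Ccl24 (-1.17). Among signalling and transcription factor genes it was positive for Traf1 (0.48), Tnfaip3 (0.95), Irak2 (0.77), Tlr3 (0.83), Cd14 (1.57), Dusp4 (1.28), Dusp5 (0.93), Maff (1.37) and Irf4 (1.09) and negative for Cbfa2t3 (-0.77).

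In antigen presentation the class II genes had negative values, H2-DMa (-1.70), H2-DMb2 (-1.23), H2-Eb1 (-0.72), H2-Ab1 (-0.56) and H2-Aa (-0.85), and positive values were found for Rfx5 (0.69), Nlrc5 (0.71) and Tap1 (0.96). Costimulators and adhesion molecules had Cd40 (0.77), Tnfsf4 (1.03), Cd83 (0.51) and Icam1 (0.67), against Cd81 (-0.57). For phagocyte receptors and products the values were Clec4e (1.00), Mrc1 (0.85), Cx3cr1 (0.84) and F13a1 (1.32) on the positive side and C1qa (-1.13), C1qc (-0.52), Cd209b (-0.79), Ccr2 (-1.0), S100a4 (-1.20), S100a9 (-2.56) and Enpep (-1.43) on the negative side. Matrix and vessel genes had Mmp13 (1.91), Mmp14 (0.90), Mmp9 (1.33), Col3a1 (1.30), Cdh5 (1.01) and Kdr (-0.91). Metabolic, stress and survival genes had Slc7a2 (4.53), Acod1 (0.75), Fabp4 (2.04), Asns (1.81), Trib3 (1.31), Me1 (1.13), Slc2a1 (0.90), Slc11a2 (0.50), Pfkfb3 (0.48), Hspa1b (1.10), Bcl2l1 (0.67) and Bid (0.92) and, below 0, Fbp1 (-4.33) and Herpud1 (-0.75). Genes of growth and division had Mki67 (2.03), Top2a (1.00) and Nop16 (-1.17). A gene with no stated role here, AA467197, had a positive value too, 2.06.

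For 12 genes 1 of the 4 cultured NOD samples lay far from the other 3 by Dixon's criterion at 95%. Chance marks about 1 in 20 groups of samples, and 246 groups were examined. The sample that stood apart, its log2 level, the level of the nearest other sample and whether it was the higher or lower one were as follows. It was sample 1 for Cd209a (6.48, next 6.84, lower), Cmpk2 (13.68, next 13.87, lower), Pdpn (11.81, next 12.25, lower) and Stat2 (13.21, next 13.58, lower), sample 2 for Hpgd (8.73, next 9.24, lower) and Serpinb9 (12.84, next 12.63, higher), sample 3 for Acod1 (13.94, next 13.77, higher), Adm (13.16, next 12.22, higher), Cd209f (9.47, next 8.61, higher) and Pou3f1 (10.57, next 10.96, lower) and sample 4 for Hspa1b (11.57, next 12.06, lower) and Wdr12 (8.56, next 8.01, higher).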

How the results depend on the processing

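All 4 counts of called probe sets in NOD stayed within 1.5 times of their value under the 7 alternatives run for them and each array left out, with 1 exception. Without the dimmer 50% of probe sets, where fewer were tested, 7304 were higher beside 17028. Leaving out 1 array gave 14348 to 16912 higher and 11977 to 13074 lower, and with at least 2-fold 3329 to 3588 and 5026 to 5758. A second quantile normalization gave 14937 higher and 12958 lower. For the interaction, an adjusted p under 0.05 left 788 probe sets smaller in NOD beside 1270. Leaving out 1 array gave 1142 to 1916 larger and 813 to 1367 smaller, the lowest without NOD steady state sample 4, and 834 smaller without sample 6; the cause was not tested.

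Equal replicate numbers occur for 2 numbers between the NOD groups, and the labels do not say that they mark a shared pool. The residuals of arrays with the same number correlated at 0.277 for number 1 and 0.0996 for number 4. The steady state array of number 1 correlated best with the cultured array of its own number, that of number 4 did not. With only 2 numbers to compare, this cannot show whether pools were shared. The samples were not treated as pairs in the main fit. With the number as a replicate block, 12622 probe sets were higher and 11461 lower, with at least 2-fold 3315 and 4966, and the interaction was called larger for 406 and smaller for 243.

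No list median changed sign under an alternative where it was at least as large as the SD of the list's mean level within groups. Sign changes of smaller medians were not counted. Of the list counts of 5 or more, 4 moved by over 1.5 times under a setting. Without the dimmer probe sets, 12 beside 19 cytokine genes were higher and 8 beside 13 mitosis genes lower. Members on the dimmer probe sets were not tested there, so fewer genes could be counted. By the mean over probe sets, 5 beside 9 ribosome biogenesis genes were lower, and under the replicate block 3 beside 6 lysosome genes. Of the 246 genes named, 14 had no value without the dimmer probe sets. Zbtb46, which had not been called, turned direction, to -0.28 (limma adjusted p = 0.0286) by the mean over its probe sets. S100a9 lost its call with an intensity trend and robust spread (limma adjusted p = 0.131). Genes named as not passing that passed under a setting were Cd3e, Cma1, Ctsb, Ctss, Hmgcs1, Hspa5, Il12b and Mcl1. The level at which a probe set is above background was not measured, so folds from dim levels are uncertain.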
